A study of Mus musculus with 21 samples.

Results

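The genes described here encode 9 surface proteins by which leukocytes hold on to vessel walls and matrix or by which macrophages are told apart: Selp, Selplg, Icam1, Icam2, Pecam1, Jam2, Adgre1, Lyve1 and Cd44. They were taken by symbol, with every array probe set annotated to that symbol alone, which gave 9 of 18194 genes on the array and 19 probe sets in all. The RNA came from sorted monocytes and macrophages of female C57BL/6 mice, 3 arrays in each of 7 groups. Peritonitis had been started by injecting zymosan, a yeast cell wall preparation, into the peritoneal cavity. Lavage gave Ly-6B+, Ly-6G- monocytes at 4 h and Ly-6B+ to Ly-6B low, Ly-6G- cells at 18 h. The 72 h macrophages were gated as F4/80+ and CD11b+. Those of 168 h were split into Ly-6B+ cells, whose F4/80 was medium to high, and Ly-6B- cells, whose F4/80 was high. Naive mice, given no zymosan, supplied 2 reference groups: monocytes of the bone marrow gated as Ly-6B+ and Ly-6G-, and the macrophages resident in the cavity, gated as high for both F4/80 and CD11b. The groups are surface phenotypes, not traced cells, and the labels call the 3 samples of a group biological replicates without saying whether animals were pooled. Transcripts were measured, not the proteins on the cell surface.

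Leukocytes leave the blood in steps. Selectins slow the rolling cell by binding sugars carried on PSGL-1, the product of Selplg, and on other mucins and CD44. Integrins such as LFA-1 and Mac-1 then hold it to ICAM-1 and ICAM-2, and PECAM-1 and the junctional adhesion molecules serve the passage between endothelial cells. P-selectin, encoded by Selp, is best known from platelets and endothelium, where it is stored in granules and brought to the surface on activation. Adgre1 encodes F4/80, an adhesion G protein-coupled receptor that marks mouse macrophages, and Lyve1 and Cd44 encode related receptors of hyaluronan, a matrix sugar. LYVE-1 is best known from lymphatic endothelium and is also carried by some tissue macrophages. ICAM-2 and F4/80 are in common use as surface markers of resident peritoneal macrophages.

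The stretch of 250 bases before the start of transcription, from RefSeq (GRCm38.p6), was available here for only 3 of the 9 genes. These were also the 3 whose signal was called higher at 4 h: Selp at chr1:164115014-164115263 on the plus strand, Cd44 at chr2:102901666-102901915 on the minus strand and Icam1 at chr9:21015690-21015939 on the plus strand. All that were available are shown. After 4 h these genes parted, Selp going on to its highest signal in resident macrophages while Icam1 and Cd44 came down. Capitals mark matches to 5 motifs searched on both strands: the NF-kB site GGAAATTCC, the interferon gamma activated site TTCNNNGAA, the AP-1 site TGANTCA, the GATA factor site GATAAG and the TATA box, spelled TATAAA.
Icam1: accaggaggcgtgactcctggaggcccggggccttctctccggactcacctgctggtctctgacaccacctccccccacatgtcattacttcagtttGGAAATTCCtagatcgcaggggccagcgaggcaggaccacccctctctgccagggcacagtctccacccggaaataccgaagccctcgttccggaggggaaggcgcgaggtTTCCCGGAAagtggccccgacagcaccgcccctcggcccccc
Selp: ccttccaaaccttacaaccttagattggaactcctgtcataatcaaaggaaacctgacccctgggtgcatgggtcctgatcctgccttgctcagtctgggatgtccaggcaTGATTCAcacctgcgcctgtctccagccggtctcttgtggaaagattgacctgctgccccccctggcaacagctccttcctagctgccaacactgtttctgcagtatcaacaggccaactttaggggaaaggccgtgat
Cd44: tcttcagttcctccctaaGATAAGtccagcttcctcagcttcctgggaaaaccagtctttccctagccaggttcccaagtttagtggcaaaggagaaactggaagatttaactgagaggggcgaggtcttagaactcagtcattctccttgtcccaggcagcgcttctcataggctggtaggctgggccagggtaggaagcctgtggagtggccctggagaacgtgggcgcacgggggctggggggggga
In the Icam1 sequence GGAAATTCC began 153 bases before the start, and TTCCCGGAA began 42 bases before it. The first motif stood in 0.286% of 32851 promoter windows of this length and the second in 7.02%. The Selp window held TGATTCA from 139 bases before the start, a motif found in 6.75% of windows, and the Cd44 window held GATAAG from 232 bases before it, found in 6.55%. TATAAA, found in 12.4% of windows, was in none of the 3. A match describes these letters only, and no binding was measured here.

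Signals are MAS5 intensities on a linear scale, with each array scaled by the authors to one mean. A value of 80.6 was the median of the whole table, and genes above it in at least 3 arrays were tested. Fold changes are on the log2(value + 15) scale, which understates the change of a gene near the floor. A change was called at an adjusted p under 0.05 (limma, Benjamini-Hochberg over 12169 genes) with a log2 fold change of 1 or more in either direction. Levels of different probe sets are not compared, since each has its own brightness. Of the 9 genes, 8 were tested and Pecam1 was too dim. The limma F test found a difference among the 7 groups for 8 of 8, where 69.8% of all genes tested passed.

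**Figure D1:**
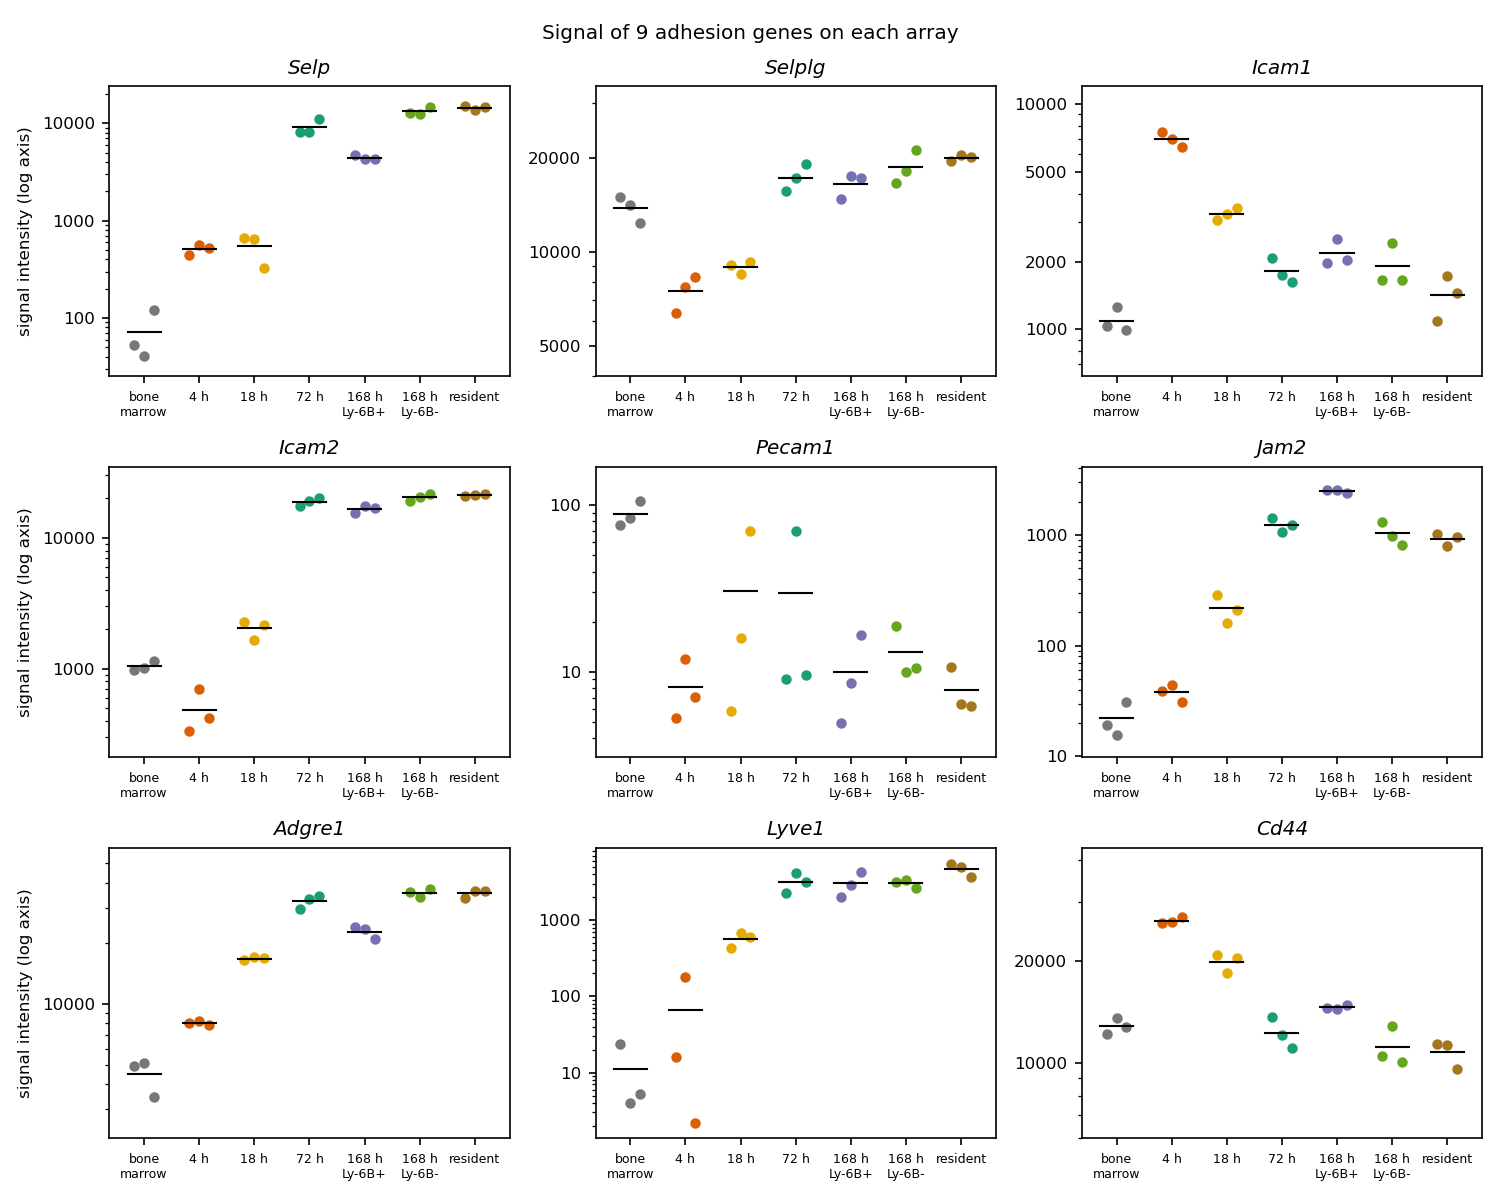
Signal intensity (log axis, a separate scale in each panel) of the 9 genes in the 7 groups; each point is 1 array and each bar the mean of 3. Selp, Icam2, Jam2 and Lyve1 had group means at least 4 times higher from 72 h on than at 18 h, Icam1 and Cd44 were highest at 4 h, and Pecam1 read at most 106 on any array.

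Selp, the P-selectin gene, had the lowest signal in bone marrow monocytes, where the 3 arrays read 53.1, 40.3 and 122. The 4 h arrays read 448, 563 and 524, and the 18 h arrays 665, 641 and 324. The 2 early inflammatory groups overlapped each other and lay above every bone marrow array. At 72 h the arrays read 8216, 8094 and 10923, and the resident macrophages 15055, 13691 and 14526. The Ly-6B- macrophages read 12626, 12458 and 14616, overlapping the resident arrays. The Ly-6B+ macrophages, also of 168 h, read 4690, 4335 and 4299, below every 72 h array. Group means therefore ran from 71.7 ± 43.7 to 14424 ± 688 (SD, n = 3). The rise came in 2 steps, of 2.71 ± 0.26 (log2 fold change ± SE) from bone marrow to 4 h (adjusted p = 2.68e-08, limma) and of 4.08 ± 0.26 from 18 h to 72 h (adjusted p = 3.33e-10), with 0.02 ± 0.26 between 4 h and 18 h (adjusted p = 0.957). Resident macrophages exceeded bone marrow monocytes by 7.49 ± 0.26 (adjusted p = 3.61e-15). The other 2 probe sets of Selp gave the same order for bone marrow, 4 h or 18 h, Ly-6B+, 72 h, Ly-6B- and resident, with bone marrow means of 55.6 and 38.3 and resident means of 13031 and 11037.

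Because P-selectin RNA is carried by platelets and endothelium too, their markers were read on the same arrays. Of 12 endothelial markers, Cdh5, Tek, Tie1 and Emcn were below the table's median on every array, and the summed signal of the 12 ran from 378 to 892 over the arrays, with 576 to 639 in resident macrophages and 425 to 573 at 4 h. Cdh5, which encodes VE-cadherin, reached at most 68.4. Other endothelial markers were dim but above the median on some arrays, Egfl7 on 14, Kdr on 11 and Cldn5 on 9 of the 21. These were the markers above it on all 3 resident arrays, with resident means of 116, 105 and 104, against 80.5, 85.7 and 43.4 at 4 h. No endothelial marker was above it on all 3 arrays of any other group but bone marrow, where 1 was. Of 11 platelet markers, Gp9 reached at most 79.7, and Gp6 at most 87.6, in a bone marrow array. Neither Gp9 nor Gp6 was above the median in a resident array, where Gp9 read 6.75, 6.81 and 9.13. Other markers of this list were not so dim. Itga2b and Treml1 were above the median on all 21 arrays, at 98.8 and 94.6 or more. Neither gene rose with Selp from bone marrow to 4 h. The mean of Itga2b went from 328 to 146 over that step, and Treml1 went from 240 to 143, though neither fall was called. Resident means were 200 for Itga2b and 171 for Treml1. On all 3 resident arrays 5 of the 11 markers were above the median. Pf4, the platelet factor 4 gene, moved with Selp in part. Its mean went from 611 ± 646 in bone marrow and 2100 ± 672 at 4 h to 34141 ± 3343 in resident macrophages (SD, n = 3). From 4 h to 18 h Pf4 rose by 2.31 ± 0.43 (limma adjusted p = 1.95e-04), to a mean of 10170, where Selp changed by 0.02 ± 0.26. Clec1b moved in part, its mean being 117 for bone marrow, 39.1 for 4 h, 37.3 for 18 h, 657 for 72 h, 37.5 for Ly-6B+, 426 for Ly-6B- and 384 for resident cells. The list's sum ran from 1354 to 4118 in bone marrow arrays, where Pf4 read between 155 and 1350, and from 33772 to 39344 in resident arrays, where Pf4 read between 32020 and 37994. The part of these transcripts in the Selp result was not tested. Resident macrophage transcripts also moved with Selp at the first step: the 11 markers of that list summed to between 4894 and 6275 in bone marrow and between 15039 and 21918 at 4 h. At 4 h 7 of the 11 were called higher and 1, Icam2, lower, where 7.5% of all genes were called higher and 14.5% lower. Serpinb2 changed most, by 7.30 ± 0.23 (limma adjusted p = 2.21e-15), from a mean of 24.4 to 6200. Timd4 rose by 2.30 ± 0.34 (adjusted p = 8.83e-06), Cd5l by 2.59 ± 0.35 (adjusted p = 3.44e-06) and Cxcl13 by 4.32 ± 0.42 (adjusted p = 3.81e-08). Gata6, Garnl3 and Adgre1 were not called, though Adgre1 added to the sum, with a mean of 4476 in bone marrow and 8055 at 4 h. The part of these resident markers in the 4 h rise of Selp was not tested. In bulk samples fewer cells of one kind and less RNA per cell cannot be told apart.

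Selplg encodes PSGL-1, the main ligand of P-selectin on leukocytes. Its signal was high in all 21 arrays, between 6390 and 21249. Bone marrow monocytes read 14996, 14117 and 12406, the 4 h cells 6390, 7730 and 8302, and the 18 h cells 9093, 8493 and 9268. No array of 4 h or 18 h reached a bone marrow array. The change at 4 h was -0.89 ± 0.11 (limma adjusted p = 1.63e-06), just short of the fold threshold, and that from 18 h to 72 h was 0.95 ± 0.11 (adjusted p = 2.14e-06). From 72 h on the group means lay between 16505 ± 1474 in the Ly-6B+ and 20061 ± 453 in the resident macrophages (SD, n = 3), and neighbours in that order overlapped. At 4 h, then, the gene of the selectin was above its bone marrow level and that of its ligand below it.

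Icam1 encodes ICAM-1, an integrin ligand known to be induced by inflammatory cytokines. The bone marrow arrays read 1037, 1257 and 992, the 4 h arrays 7503, 7017 and 6456, and the 18 h arrays 3068, 3249 and 3447. Its highest signal was thus the earliest time, and the 3 groups did not overlap. Icam1 rose by 2.66 ± 0.17 at 4 h (limma adjusted p = 9.14e-11) and fell by 1.10 ± 0.17 between 4 h and 18 h (adjusted p = 2.54e-05). The change from 18 h to 72 h was -0.84 ± 0.17 (adjusted p = 6.07e-04), short of the fold threshold. Later means were 1814 ± 237 at 72 h, 2183 ± 301 for the Ly-6B+ cells, 1913 ± 445 for the Ly-6B- cells and 1426 ± 322 for resident macrophages (SD, n = 3), and neighbours in the order of these means overlapped. Resident macrophages and bone marrow monocytes differed by 0.36 ± 0.17 (adjusted p = 0.0885), with the resident arrays at 1092, 1734 and 1452.

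Icam2 encodes ICAM-2, which endothelium and resident peritoneal macrophages carry constitutively. It went the opposite way at 4 h, with 337, 704 and 420 against 981, 1012 and 1140 in bone marrow. No 4 h array reached a bone marrow array. The 18 h arrays read 2284, 1649 and 2171, and the 72 h arrays 17449, 19023 and 20205. Icam2 fell by 1.14 ± 0.18 at 4 h (limma adjusted p = 1.61e-05), rose by 2.08 ± 0.18 between 4 h and 18 h (adjusted p = 1.38e-08) and by 3.22 ± 0.18 between 18 h and 72 h (adjusted p = 3.89e-11). The fall at 4 h was -0.92 without 4 h replicate 1 and -0.96 after quantile normalization, in both cases short of the fold threshold. From 72 h on all 12 arrays lay between 15390 and 21730. The Ly-6B+ macrophages had the lowest mean of these, 16547 ± 1044, and the resident macrophages the highest, 21370 ± 381 (SD, n = 3), and these 2 groups did not overlap. Their difference was -0.37 ± 0.18 (adjusted p = 0.223).

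Pecam1 encodes PECAM-1 (CD31), found on endothelium, platelets and many leukocytes. Its 1 probe set read 76.4, 84.5 and 106 in bone marrow monocytes and at most 70.1 on every other array. It passed the median on 2 arrays only and was not tested in the fit of brighter genes. Resident macrophages read 10.7, 6.41 and 6.24. The bone marrow arrays thus lay above the other 18, near the level of the median probe set. In a limma fit of all 18194 genes without the filter, Pecam1 changed by -2.17 ± 0.45 at 4 h (adjusted p = 6.43e-04) and by -2.19 ± 0.45 in resident macrophages (adjusted p = 6.15e-04), both against bone marrow.

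Jam2 encodes JAM-B, an endothelial junction protein that binds JAM-C and the integrin VLA-4. Its brightest probe set read 19.2, 15.7 and 31.2 for bone marrow, with 39.2, 44.2 and 31.1 at 4 h, below the table's median in both groups. The 18 h arrays read 285, 159 and 210, and those of 72 h 1432, 1056 and 1223. Both steps were clear of overlap, by 2.10 ± 0.21 from 4 h to 18 h (limma adjusted p = 1.12e-07) and by 2.45 ± 0.21 from 18 h to 72 h (adjusted p = 1.78e-08). The highest group was not the resident macrophages, which read 1013, 805 and 963, but the Ly-6B+ macrophages of 168 h, which read 2571, 2579 and 2401. Ly-6B- macrophages read 1323, 986 and 811 and overlapped the resident and 72 h arrays. All 5 probe sets of Jam2 had their highest mean in the Ly-6B+ macrophages. They differed at 4 h: the second brightest probe set rose from a mean of 26.4 to 159, by 2.14 ± 0.22 (adjusted p = 7.01e-08), while the other 4 changed by -0.06 to 0.54.

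Adgre1 encodes F4/80, and F4/80 was a gate of the 72 h, 168 h and resident sorts, so its transcript is not independent of how these groups were made. Among the groups sorted without F4/80, the bone marrow arrays read 4927, 5064 and 3438, the 4 h arrays 8033, 8248 and 7885, and the 18 h arrays 16488, 17052 and 16892. These 3 groups stood in steps without overlap. The change was 0.87 ± 0.11 at 4 h (limma adjusted p = 1.87e-06), short of the fold threshold, and 1.06 ± 0.11 from 4 h to 18 h (adjusted p = 2.65e-07). Within the F4/80-gated groups the mean was 32440 ± 2386 at 72 h, 22914 ± 1613 for Ly-6B+ cells, 35755 ± 1596 for Ly-6B- cells and 35564 ± 1566 for resident macrophages (SD, n = 3). The Ly-6B+ group, gated at medium to high F4/80, lay below the Ly-6B- group, gated at high F4/80, by 0.64 ± 0.11 on the log2 scale (adjusted p = 6.45e-04), without overlap.

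Lyve1 was near the floor on the bone marrow arrays, at 23.9, 3.93 and 5.18, while those of 4 h read 16.3, 180 and 2.20. The middle 4 h array stood alone, and that same array read 2200 for Alox15 and 196 for Timd4, which mark resident peritoneal macrophages, against 131 and 156 for Alox15 and 57.6 and 34.7 for Timd4 in the other 2. The part of such cells in that Lyve1 value was not tested. With this array the change at 4 h was 0.94 ± 0.55 (limma adjusted p = 0.176), and without it -0.08 (adjusted p = 0.878). Without 4 h replicate 3 the change was 1.67 (adjusted p = 0.0114), past both thresholds. At 18 h all 3 arrays were higher, at 432, 680 and 593, and at 72 h they read 2239, 4136 and 3161. Lyve1 rose by 3.61 ± 0.55 from 4 h to 18 h (adjusted p = 2.33e-05) and by 2.43 ± 0.55 from 18 h to 72 h (adjusted p = 0.00183). Resident macrophages read 5525, 5024 and 3638, the highest mean, 4729 ± 978 (SD, n = 3). They overlapped the 72 h and the Ly-6B+ arrays, and lay above the Ly-6B- arrays of 3184, 3354 and 2609. By the second probe set, resident arrays of 1996, 1727 and 1238 overlapped Ly-6B- arrays of 1091, 1372 and 1245. The second Lyve1 probe set rose too, less in proportion, from a mean of 30.8 in bone marrow to 204 at 18 h and 1654 in resident macrophages, where the brightest went from 10.99 to 568 and 4729. Of 5 lymphatic endothelial markers, Prox1, a defining transcription factor of these cells, read at most 46.9 on any array and Mmrn1 at most 71.7. Flt4 was above the median on 13 arrays, at 112 at most. Pdpn, which encodes podoplanin, rose by 4.09 ± 0.26 at 4 h (adjusted p = 8.41e-11), from a mean of 59.9 to 1246, and read 72.1 in resident macrophages, where Lyve1 was highest. The summed signal of the 5 was thus 1452 to 1560 at 4 h and 280 to 312 in resident arrays.

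Cd44 encodes the main hyaluronan receptor of leukocytes, which also carries selectin-binding sugars. Its signal was high on all arrays and peaked with Icam1 at 4 h, at 26052, 26057 and 27058 against 12204, 13630 and 12817 in bone marrow. The 18 h mean was 19920 ± 1302, that of 72 h 12294 ± 1337 and that of the resident macrophages 10753 ± 1022 (SD, n = 3). The 18 h arrays lay between those of 4 h and 72 h without overlap. Cd44 rose by 1.03 ± 0.10 at 4 h (limma adjusted p = 4.97e-08), a change that was 0.996 (adjusted p = 1.07e-06), just short of the fold threshold, without bone marrow replicate 1. The steps down, -0.41 ± 0.10 to 18 h (adjusted p = 0.00315) and -0.70 ± 0.10 to 72 h (adjusted p = 2.26e-05), stayed under the fold threshold. Probe sets disagreed on the size. The dimmest of the 3 that were above the median had a 4 h mean 3.82 times that of bone marrow and 6.94 times that of resident macrophages, where the brightest probe set gave 2.05 and 2.45 times, and it passed both thresholds in the step from 4 h to 18 h (-1.15 ± 0.18, adjusted p = 2.97e-05). The remaining probe set was below the median on every array.

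Between the end points of the series, naive bone marrow monocytes and naive resident macrophages, 5 of the 8 tested genes were called, all higher in the resident cells: Selp, Icam2, Jam2, Adgre1 and Lyve1. Of all genes tested, 12.9% were called higher and 10.2% lower in that comparison. The median change of the 8 was 3.67 on the log2 scale, beside 0.05 over all genes. Lyve1 changed by 7.57 ± 0.55 (limma adjusted p = 3.89e-10) and Selp by 7.49 ± 0.26, which is no order between them: with 4 times the pseudocount they changed by 6.07 and 6.83. Jam2 followed with 4.68 ± 0.21 (adjusted p = 1.69e-13), Icam2 with 4.34 ± 0.18 (adjusted p = 4.07e-14) and Adgre1 with 3.01 ± 0.11 (adjusted p = 1.13e-14). Selplg differed by 0.54 ± 0.11 (adjusted p = 5.42e-04) and Cd44 by -0.26 ± 0.10 (adjusted p = 0.0405), both small beside these. The labelled resident macrophages carried their defining transcripts, with all 11 resident markers, of which Icam2 and Adgre1 are 2, above the median in each of the 3 arrays. In bone marrow 2 of the 11 were. At 72 h and in both 168 h groups all 11 were too, so this check does not set resident cells apart from those.

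The 5 resident-high genes did not gain signal at the same pace. At 18 h, by the brightest probe set of each, Adgre1 had reached 47.3% of its resident mean, Jam2 23.5%, Lyve1 12.0%, Icam2 9.52% and Selp 3.77%. The place of Jam2 depends on the probe set, since its other 4 gave 25.4%, 47.6%, 48.4% and 63.4%. The other Selp probe sets gave 2.19% and 4.82% and the other Lyve1 probe set 12.3%. At 72 h the shares were 91.2% for Adgre1, 133% for Jam2, 67.2% for Lyve1, 88.4% for Icam2 and 62.9% for Selp. These are ratios of group means, given as a description, and the order between genes was not tested. The 11 resident markers include Icam2 and Adgre1, so their summed signal is not independent of the 5 genes. That sum rose from the bone marrow and 4 h sums given above to between 31869 and 39538 at 18 h. It lay between 165570 and 212664 at 72 h and between 215767 and 230535 in resident arrays. Not all of the 5 genes followed it at each step. At 4 h Icam2 changed by -1.14 ± 0.18, and from 4 h to 18 h Selp changed by 0.02 ± 0.26. In Ly-6B+ arrays the sum was between 103807 and 120219, while Jam2 stood at 272% of its resident mean. Whether newly arrived cells gained the resident-high transcripts or cells that had them became a larger share of the sort was not tested.

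**Figure D2:**
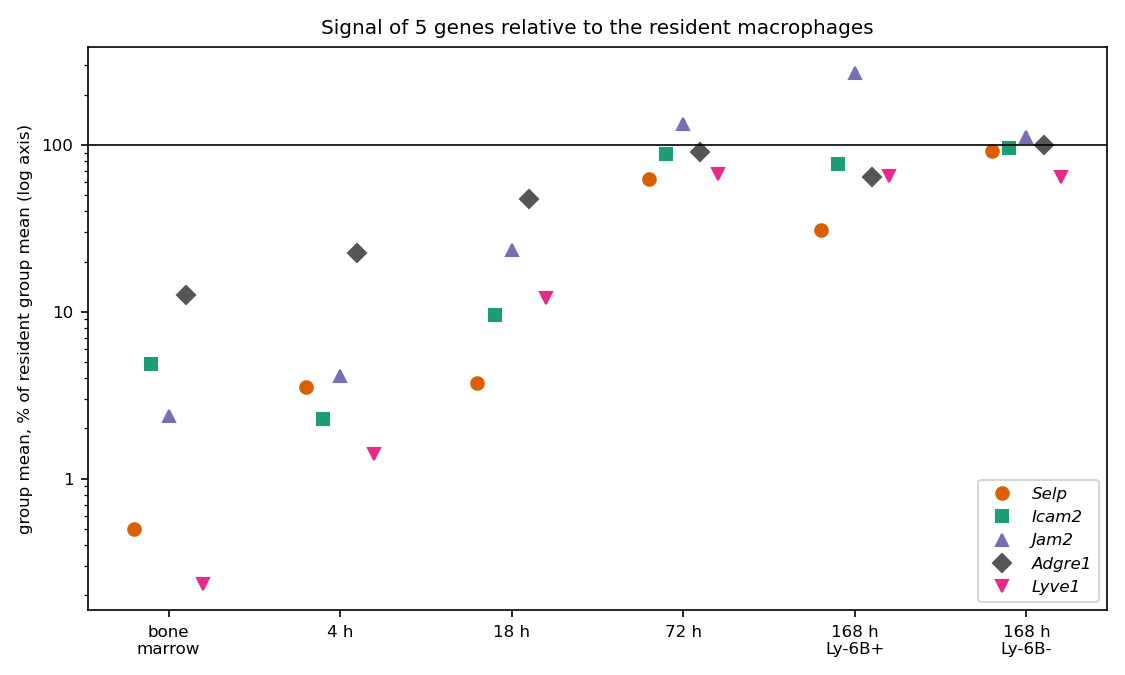
Group means of Selp, Icam2, Jam2, Adgre1 and Lyve1 by the brightest probe set of each, as a percent of the resident group mean (log axis; the line marks 100%) in the other 6 groups. At 18 h the 5 genes spread from 3.77% for Selp to 47.3% for Adgre1, and in the Ly-6B+ macrophages from 30.8% for Selp to 272% for Jam2.

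At 4 h, against bone marrow monocytes, Selp, Icam1 and Cd44 were called higher and Icam2 lower, 4 of the 8 genes. Of all genes 7.5% were called higher and 14.5% lower. The median change of the 8 was 0.90, beside -0.14 over all genes. Between 4 h and 18 h, 4 of the 8 were called higher (Icam2, Jam2, Adgre1 and Lyve1) and Icam1 lower, where 10.9% of all genes were called higher and 4.56% lower. Between 18 h and 72 h, 4 were called higher (Selp, Icam2, Jam2 and Lyve1) and none lower, where 9.03% of all genes were called higher and 3.46% lower. Adgre1, Selplg, Icam1 and Cd44 all had limma adjusted p-values of at most 6.07e-04 in that last step and changes under the fold threshold, between -0.84 and 0.95. Against bone marrow, the 18 h cells had Selp, Icam1, Jam2, Adgre1 and Lyve1 called higher, where 7.3% of all genes were called higher and 8.32% lower. The comparisons share arrays, so their calls are not independent.

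**Figure D3:**
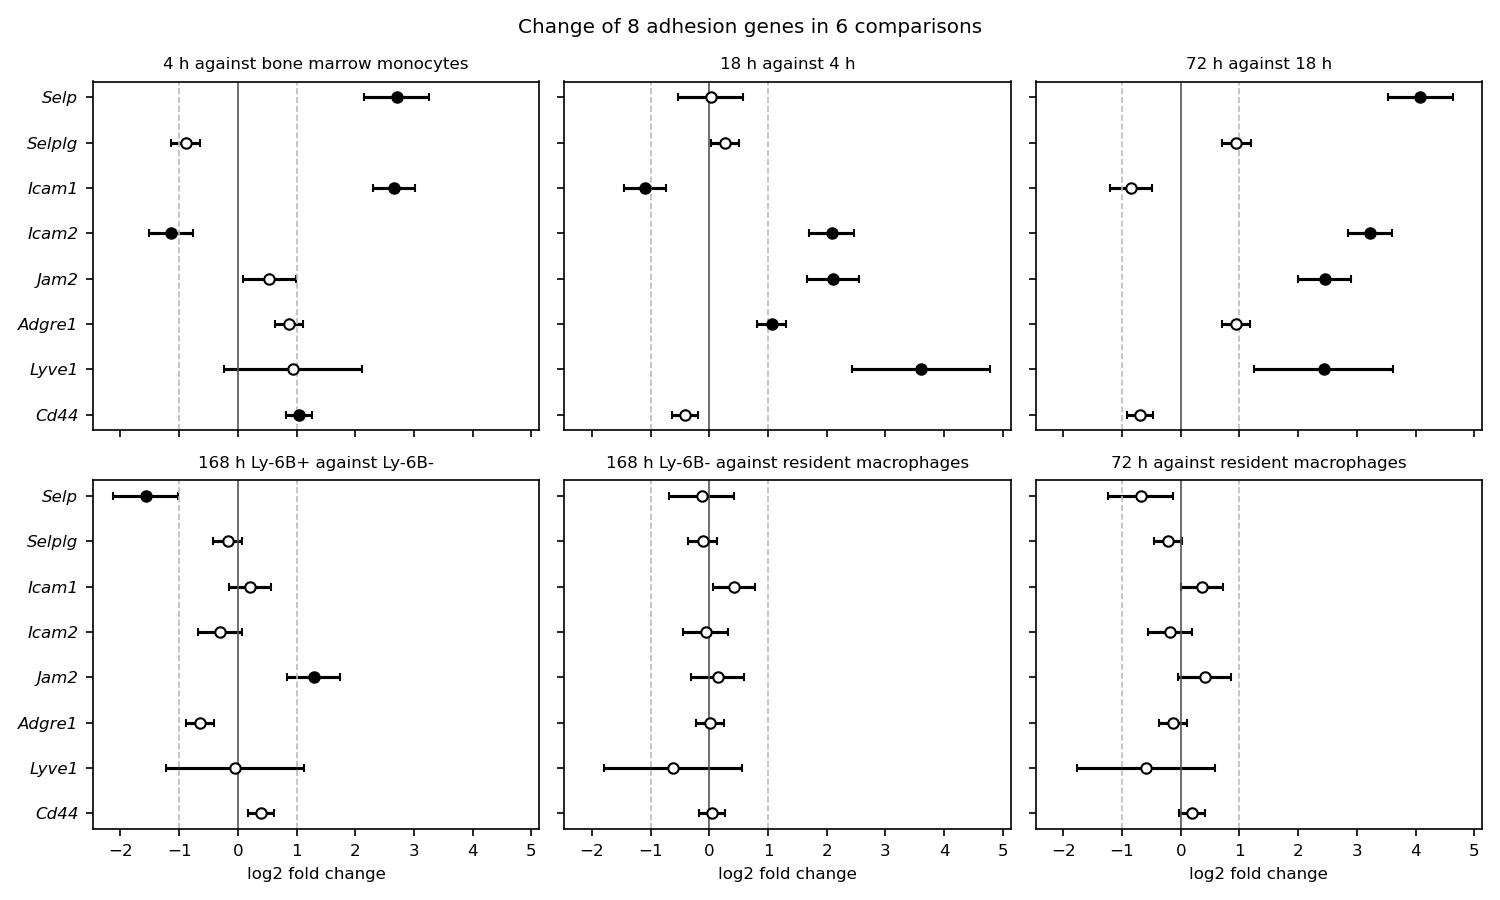
Log2 fold change with its 95% confidence interval (bars, limma SE on 14 residual degrees of freedom) of the 8 tested genes in 6 comparisons. Filled points were called and dashed lines mark a change of 1 in either direction. Selp, Icam1 and Cd44 lie to the right at 4 h, and in the panels against resident macrophages no point is filled.

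At 168 h the 2 macrophage groups differed in Selp and Jam2, in opposite directions. Selp was lower in the Ly-6B+ cells by 1.57 ± 0.26 on the log2 scale (limma adjusted p = 3.43e-04) and Jam2 higher by 1.29 ± 0.21 (adjusted p = 2.76e-04). These were 2 of 8 genes, where 1.54% of all genes were called higher and 2.41% lower in the Ly-6B+ cells. Adgre1 and Cd44 also had adjusted p-values under 0.05, with Cd44 higher by 0.40 ± 0.10 (adjusted p = 0.0165), and both were short of the fold threshold. The intervals of the other 4 differences were -0.42 to 0.07 for Selplg, -0.16 to 0.57 for Icam1, -0.68 to 0.07 for Icam2 and -1.23 to 1.13 for Lyve1, so a 2-fold difference in Lyve1 in either direction could not be told from none. Some platelet-list markers were lower in Ly-6B+ along with Selp. Of 9 tested, 2 were called lower and none higher: Clec1b, at a mean of 37.5 against 426 (-3.18 ± 0.40, adjusted p = 1.34e-05), and Itgb3. Pf4 changed by -0.76 ± 0.43 (adjusted p = 0.336). The list summed to between 15951 and 22033 in Ly-6B+ arrays and between 31891 and 33826 in Ly-6B- arrays, and its part in the Selp difference was not tested.

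Of the 3 probe sets of Selp the brightest alone passed both thresholds, and their mean did too, at -1.23 (limma adjusted p = 0.00880). The other 2 changed by -0.998 ± 0.32 (limma adjusted p = 0.0730) and -1.13 ± 0.36 (adjusted p = 0.0699). In each of those 2 the Ly-6B- arrays were spread widely, with replicate 1 lowest and replicate 3 highest, for example 5244, 8044 and 11952, and the Ly-6B+ arrays lay below all of them, at 3902, 4237 and 3809. The same spread by number appeared at 72 h and in resident macrophages in these 2 probe sets, with resident arrays of 8387, 11276 and 13448. Of the 5 probe sets of Jam2, 3 were called higher in Ly-6B+, with changes of 1.29, 1.63 and 1.09, and the other 2 changed by 0.89 (adjusted p = 0.136) and 0.50 (adjusted p = 0.205).

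**Figure D4:**
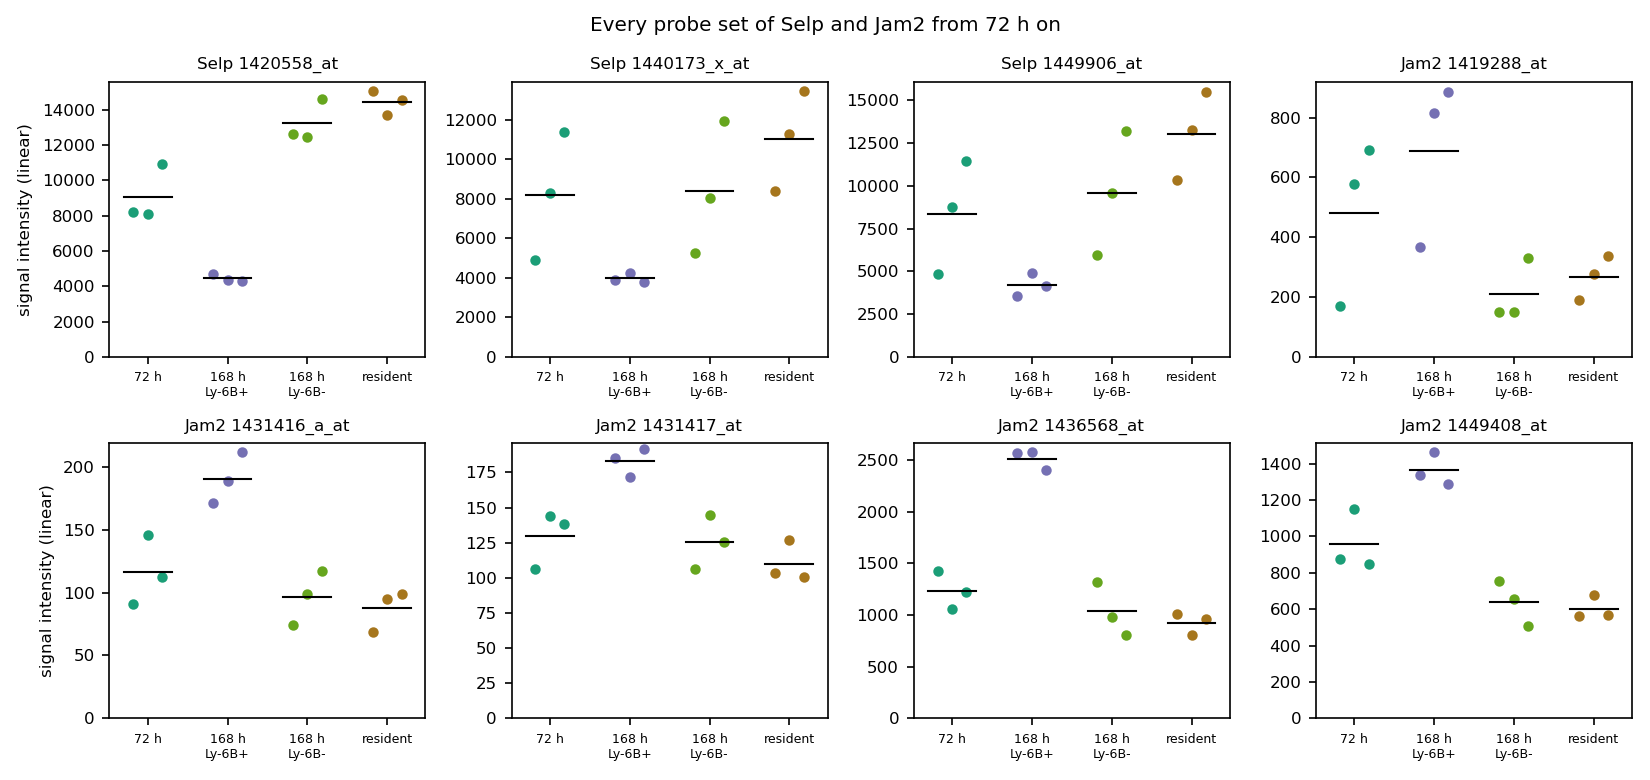
Signal intensity (linear axis from 0) of the 3 Selp and 5 Jam2 probe sets from 72 h on; points are arrays in the order of replicates 1 to 3 and bars are means. The Ly-6B+ macrophages have the lowest mean in each Selp panel, at 4441 for the brightest of the 3, and the highest in each Jam2 panel, at 2517 for the brightest of the 5.

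Neither the Ly-6B- macrophages nor those of 72 h had a called difference from naive resident macrophages. For Ly-6B-, 0 of the 8 genes were called by limma and 1 had an unadjusted p under 0.05, where 0.0411% of all genes were called higher and 0% lower. The Lyve1 difference of -0.62 ± 0.55 had a limma adjusted p of 0.999812. Its arrays did not overlap by the brightest probe set but did by the second. For 72 h, 0 of 8 were called and 2 had an unadjusted p under 0.05, where 0.707% of all genes were called higher and 0.0247% lower. Selp was the furthest of these at -0.68 ± 0.26 (adjusted p = 0.298), with an interval from -1.23 to -0.13. A missed threshold does not show equal levels, and the widest intervals, those of Lyve1, ran from -1.80 to 0.56 for Ly-6B- and from -1.77 to 0.59 for 72 h.

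Selp and Jam2 were the members called in the Ly-6B+ macrophages against 72 h and against resident macrophages, and the other 6 tested were not. Against 72 h, Selp changed by -1.02 ± 0.26 (limma adjusted p = 0.0214) and Jam2 by 1.03 ± 0.21 (adjusted p = 0.00407), 2 of 8 genes, where 0.674% of all genes were called higher and 1.87% lower. Both changes lie at the fold threshold, and leaving out any one of 5 of the 6 arrays left 1 of the 2 called. Without 72 h replicate 3 Selp changed by -0.88 (adjusted p = 0.122), and without 72 h replicate 2 Jam2 changed by 0.92 (adjusted p = 0.0281). Of all 21 arrays, 72 h replicate 2 read highest for the B cell marker Ms4a1 (5384), the mast cell marker Cpa3 (3408) and Cd2 (1089), a T and NK cell marker. The part of such cells in these changes was not tested. Without Ly-6B+ replicate 1, 2 or 3 the adjusted p of Selp was 0.0511, 0.0698 or 0.0779. In a comparison added after the values were seen, the Ly-6B+ against resident macrophages, Selp differed by -1.70 ± 0.26 (adjusted p = 1.38e-04) and Jam2 by 1.43 ± 0.21 (adjusted p = 8.34e-05), where 1.98% of all genes were called higher and 2.4% lower. In the Ly-6B+ cells Timd4, a phosphatidylserine receptor of resident peritoneal macrophages, had a mean of 1622 ± 449 against 16913 ± 519 in Ly-6B- cells, and Ccr2, a monocyte chemokine receptor, 6848 ± 1173 against 160 ± 65.4 (SD, n = 3). The resident marker list summed to between 103807 and 120219 in Ly-6B+ arrays and between 209476 and 235222 in Ly-6B- arrays, and its part in the Selp and Jam2 differences was not tested.

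Wider lists of genes of the same adhesion steps, which count the members again where they belong, moved with their own timing. Of 8 tested selectins and selectin ligands, the member Selplg among them, 2 were called higher at 4 h, the members Selp and Cd44, and 3 lower. The median change was -0.87 beside -0.14 over all genes. Spn, which encodes the mucin CD43, had a mean of 5818 in bone marrow and 468 at 4 h, a change of -3.62 ± 0.29 (limma adjusted p = 2.65e-09), and Cd34 changed by -2.65 ± 0.51 (adjusted p = 1.98e-04). Cd34 also marks progenitors. The 8 markers of granulocyte and monocyte progenitors, Cd34 among them, were all above the median on the 3 bone marrow arrays and summed to between 35195 and 94359 there, against 1261 to 1573 at 4 h. Their part in these falls was not tested. In the list of selectin ligand synthesis, 2 of 14 tested genes were higher and 3 lower at 4 h. Over all genes the shares were 7.5% and 14.5%, so these counts and the others of small lists say little about a list as such. Fut7, the fucosyltransferase that completes the selectin-binding sugar, changed by -3.09 ± 0.20 at 4 h (adjusted p = 1.02e-10) and by 2.06 ± 0.20 from 4 h to 18 h (adjusted p = 7.12e-08). B4galt5 and St3gal4, a galactosyltransferase and a sialyltransferase, changed by 2.23 ± 0.29 and 1.70 ± 0.20 at 4 h. At 4 h, then, Selplg and Fut7 were both lower than in bone marrow, and Selp was higher.

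Among 15 tested adhesion molecules of the immunoglobulin superfamily, 3 were higher and 5 lower at 4 h (7.5% and 14.5% of all genes). The member Icam1 is counted among the higher and Icam2 among the lower. Cd244a, a receptor of the SLAM family, was up by 4.14 ± 0.17 (limma adjusted p = 1.52e-13) and Ncam1 changed by -4.50 ± 0.39 (adjusted p = 6.68e-09). Vcam1 changed by -2.03 ± 0.74 (adjusted p = 0.0286). In resident macrophages against bone marrow 4 were higher and 3 lower, where 12.9% of all genes were higher and 10.2% lower. Of 10 tested integrin subunits that bind ICAMs, VCAM-1 or JAMs, 4 were higher and 1 lower in resident macrophages, the latter near the 10.2% of all genes. Itgam, the CD11b subunit of Mac-1 and itself a sort marker, changed by 3.09 ± 0.20 (adjusted p = 7.55e-11), and Itgal, the alpha subunit of the ICAM receptor LFA-1, by -3.94 ± 0.22 (adjusted p = 9.12e-12), from a mean of 3569 to 221. Itgal was higher in the Ly-6B+ than in the Ly-6B- macrophages by 1.61 ± 0.22 (adjusted p = 5.46e-05), while Itgb3 differed by -2.15 ± 0.36 (adjusted p = 4.78e-04). Icam2 and the gene of one of its integrin receptors thus ran in opposite directions between bone marrow and resident cells.

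Of 9 tested genes of junctions and transmigration, 3 were higher and none lower in resident macrophages than in bone marrow (12.9% and 10.2% of all genes): Ocln, Jam2 and Tjp1. Ocln, the tight junction protein occludin, was at a mean of 10.97 in bone marrow, 20.9 for 18 h, 654 for 72 h and 1002 among resident macrophages, a change of 5.34 ± 0.34 between the ends (limma adjusted p = 4.77e-11). In the Ly-6B+ macrophages its mean was 54.1 against 884 in Ly-6B-, a difference of -3.71 ± 0.34 (adjusted p = 2.34e-07), and Tjp1, a scaffold of the same junctions, differed by -2.19 ± 0.30 (adjusted p = 3.71e-05). In that comparison Jam2 was the 1 gene of this list called higher in the Ly-6B+ cells, and Ocln and Tjp1 were the 2 called lower. At 4 h Pvr and F11r, the latter encoding JAM-A, were higher by 2.22 ± 0.22 and 2.01 ± 0.44.

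In the hyaluronan list, 5 of 11 tested genes were higher at 4 h, Cd44 among them, and Hmmr was lower, where 7.5% of all genes were higher and 14.5% lower. Vcan encodes versican, a proteoglycan that binds hyaluronan, and its mean went from 1551 in bone marrow to 22390 at 4 h, then 7358 for 18 h cells and 282 for 72 h cells. The rise of 3.90 ± 0.23 (limma adjusted p = 2.55e-11) came with that of Cd44, and the fall to 72 h was -4.65 ± 0.23 (adjusted p = 8.15e-12). Stab1, the scavenger receptor stabilin-1, rose by 3.82 ± 0.35 at 4 h (adjusted p = 1.44e-08), a time at which Lyve1 was not called, and by 2.09 ± 0.35 from 4 h to 18 h (adjusted p = 6.25e-05). In resident macrophages against bone marrow 4 genes of this list were higher and 3 lower. Of 10 tested adhesion G protein-coupled receptors 5 were higher and 3 lower in that comparison. Over all genes 12.9% were higher and 10.2% lower. Adgrg6 changed by 3.79 ± 0.23 (adjusted p = 2.57e-11), Adgrg3 by -4.81 ± 0.53 (adjusted p = 2.30e-07), and Adgre1 was among the 5.

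Of 8 tested genes that serve the cutting of adhesion molecules off the cell surface, 4 were higher and 1 lower at 4 h (7.5% and 14.5% of all genes). Their median change was 1.19 beside -0.14 over all genes. Not all of them encode cutting enzymes, Rhbdf2 being one that does not. Adam17 and Adam10, at 0.74 ± 0.12 and 0.34 ± 0.13, were not called. Adam8 rose by 5.44 ± 0.17 (limma adjusted p = 2.21e-15), from a mean of 315 to 14282, and Mmp14 by 4.60 ± 0.19 (adjusted p = 1.20e-13). Both fell between 4 h and 18 h, with changes of -1.99 ± 0.17 for Adam8 and -1.76 ± 0.19 for Mmp14. Among 11 genes that link membrane proteins to the cytoskeleton 0 were higher and 2 lower at 4 h, near the 14.5% of all genes called lower. These were Actn1 and Vcl, at -2.66 ± 0.53 (adjusted p = 2.94e-04) and -1.64 ± 0.15 (adjusted p = 1.85e-08). Ezr, which encodes ezrin, was 1 of 3 lower in resident macrophages than in bone marrow, at -2.29 ± 0.26 (adjusted p = 2.58e-07), and was higher in Ly-6B+ than in Ly-6B- macrophages by 1.11 ± 0.26 (adjusted p = 0.00733). Bone marrow arrays also carried neutrophil transcripts, with 9 markers summing to between 62383 and 200638 against 2703 to 10286 elsewhere, and their part in the comparisons with bone marrow was not tested.

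Over the 21 arrays the members fell into 2 patterns. Icam1 and Cd44 ran together (Pearson r = 0.89 on log2 values) and against Selplg (r = -0.78 and -0.93). Selp, Icam2, Jam2, Adgre1 and Lyve1 correlated with each other at 0.89 to 0.95. These values describe arrays that fall into 7 groups and carry no test. Among 2265 tested genes whose group means ranged over at least 2 on the log2 scale, those most like Selp were Ptgfrn (r = 0.989), Fabp4 (0.988) and Fzd1 (0.986). Nearest to Icam2 stood Itga6 (0.995), Slc38a6 (0.991) and Sh3d19 (0.990), and nearest to Jam2 St8sia6 (0.978), F7 (0.972) and Smagp (0.972). For Adgre1 they were Ptgis (0.987), Ms4a8a (0.983) and Fgfr1 (0.982), and for Lyve1 Timp2 (0.984), Calml4 (0.983) and Cd5l (0.981). Icam1 was most like Cxcl3 (0.977), a chemokine gene, Ms4a6d (0.973) and Mvp (0.965). Selplg and Cd44 ranged over less than 2, and no gene is named for them.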

How the data were processed

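Biotin-labelled RNA of 21 sorted samples was measured on Affymetrix arrays. Per the labels, cells from peritoneal lavage or flushed bone marrow were stained on ice and sorted, and 100 ng of TriZol RNA was labelled in 2 cycles. The table holds MAS5 signal intensity, which the authors made with Affymetrix Expression Console 1.2 per the submitters' processing notes. The 2% trimmed mean was 500.0 on every array, tested on the values, and array medians ran from 67.3 to 93.0. Precision is limited by 3 arrays a group.

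Of 45101 probe sets, 34958 had 1 gene symbol. Those with several (932) or not listed (9211) were not used. A gene was tested by its probe set of highest mean over all arrays. The test was limma 3.58.1 under R 4.3.3 on log2(intensity + 15), 2-sided, by lmFit and a trended eBayes across the 21 arrays with 14 residual degrees of freedom and no block. The 15 added is the rounded 20th percentile of the table. Confidence intervals used the limma SE with the 14 residual degrees of freedom. The p-values also use degrees of freedom borrowed across genes, so the intervals are somewhat wider than the test's own. The fit was tested on simulated data. The members and the gene lists were chosen with earlier results of these data known. Beside the 9 members, the text names per list at most 2 called genes in either direction, by size of change, the 3 genes most like a member, and markers that were read as checks. Same-numbered arrays were flagged as likely pairs if their residuals correlated above 0.1 for each number, as the 168 h groups did (0.296, 0.276 and 0.178). The reported fit did not use this pairing, also not for the 168 h groups. A replicate block was run only as an alternative. The pairing comes from the data, not from the labels. Gene positions of the array's build were not used here.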

Additional observations from a re-analysis of the deposited data

How the results depend on the processing

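The 9 planned comparisons held 27 calls of single members, of which 18 were kept in every alternative run and 9 lost in at least 1; no called value changed sign. Tried were 2 other pseudocounts, quantile scaling or a common median of the arrays, the low-signal filter dropped or raised to the 75th percentile, probe sets averaged or tested singly, eBayes with no trend, weights for the arrays, the replicate block, no minimum fold, treat, a fit of the 6 arrays alone, every replicate left out once, and 3 arrays with unusual markers left out together (replicate 3 of bone marrow and replicate 2 of both 4 h and 72 h). A common median moved the median change of all genes from 0.05 to -0.09 in resident against bone marrow and from 0.03 to -0.09 in 72 h against 18 h, and the members' counts there stayed at 5 and 4.

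The least stable count was that of Ly-6B+ against 72 h, 2 as reported. It was 1 with 4 times the pseudocount, with quantile scaling, with a common median and without the 3 arrays, 0 with probe sets averaged and 0 with treat, and between 1 and 2 with 1 replicate left out. Without a minimum fold the counts were 7 at 4 h against bone marrow, 8 at 72 h against 18 h, 4 for the 168 h groups, 8 at 18 h against bone marrow and 5 for Ly-6B+ against resident. With treat, which tests against a change of 1, they were 2 at 4 h against bone marrow, 3 at 18 h against 4 h, 0 for the 168 h groups and 0 for Ly-6B+ against resident. These 2 rules differ by construction in the fold they ask for. Cd44 at 4 h was 0.83 with probe sets averaged, and Selplg at 4 h was -1.06 with quantile scaling, past the fold threshold; the cause was not tested. With the replicate block the 168 h groups kept 2 members called, with 495 genes called beside 480, and the block changed no other member's count. Intensities near or below the table's median, as in Pecam1 and on bone marrow arrays for Selp (2 of 3 arrays), Jam2 and Lyve1, limit what the arrays can show there.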
